A study of Homo sapiens with 7 samples.

Results

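Muscle cells carrying TBX2 or TBX3 transcripts were taken from the day 15 DMSO library of a cardiac differentiation of the H1 line, established human embryonic stem cells. DMSO is the vehicle in which small molecules are dissolved. A cell counted as muscle when TNNT2, ACTN2, MYH6 and TNNI1, genes of the contractile apparatus, together made up at least 0.25 of the 95th percentile of their share over all cells of that library. The cells were chosen by these measured values and also held at least 2 unique molecular identifiers (UMIs, each standing for 1 captured transcript) of TBX2 and TBX3 together and 0 UMIs of SHOX2, a transcription factor of the sinus node. The 95th percentile was 1.85% of a cell's UMIs, so the muscle threshold was 0.463%. Of 4015 cells with DMSO, 2122 (52.9%) were muscle and 431 were chosen, out of 15305 cells in all 3 single-cell libraries. These 431 cells, called TBX cells here, were 20.3% of the DMSO muscle cells (exact binomial 95% interval 18.6 to 22.1). They were set beside 1010 muscle cells of the same library with 0 UMIs of TBX2, TBX3 and SHOX2, called comparison cells.

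The series also held a day 15 library with CHIR (CHIR99021, which blocks GSK3 and thereby switches on the canonical Wnt pathway), and a day 11 library whose labels give no treatment. No dose of CHIR is on the labels, nor when it was added. All 3 came from H1 cells and carried no stated allele or transgene, with 1 library in each group, and the protocol text of the day 11 sample also speaks of day 15. With 1 library in each group, no difference below has a replicate check. Levels are given as CPM, the pooled UMIs of a gene over the pooled UMIs of the cells, scaled to 1000000, and every interval is a 95% interval that covers counting error only. Here "higher" and "lower" mean a ratio of at least 1.5-fold, and no p-value is given.

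TBX2 and TBX3 are T-box transcription factors that mostly repress their targets. In the embryonic heart they mark the muscle of the atrioventricular canal (AVC), where they keep the muscle from taking on the programme of the working chambers and so help slow conduction between atria and ventricles. BMP2 signalling acts upstream of TBX2 in the canal, MSX2 is a homeobox gene of the same muscle, and the natriuretic peptide gene NPPA is a classic chamber gene that TBX2 and TBX3 repress. TBX2 lies on chromosome 17 from 61399843 to 61409466 and TBX3 on chromosome 12 from 114670255 to 114684175, in the RefSeq annotation of GRCh38.p14.

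TBX2 was the more often detected gene of the pair. TBX2 gave 894 UMIs in 388 of the 431 cells, a level of 141 CPM (132 to 151), and TBX3 gave 292 UMIs in 184 cells, a level of 46.1 CPM (40.9 to 51.7). TBX2 alone was found in 247 cells, TBX3 alone in 43 and both in 141. Non-muscle cells of the library stood at 3.55 CPM for TBX2 and at 14.4 CPM for TBX3. Most chosen cells sat at the lower end of the rule: 240 held exactly 2 UMIs, 115 held 3, 45 held 4 and 31 held 5 to 10, while 563 muscle cells with 1 UMI fell just outside it. At the muscle threshold, 4 TBX cells lay within 10% above it and 4 cells of the library within 10% below it. All of these values come from the genes that chose the cells and are a description only. A cell with 0 UMIs may still have made the transcript at this depth.

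**Figure D1:**
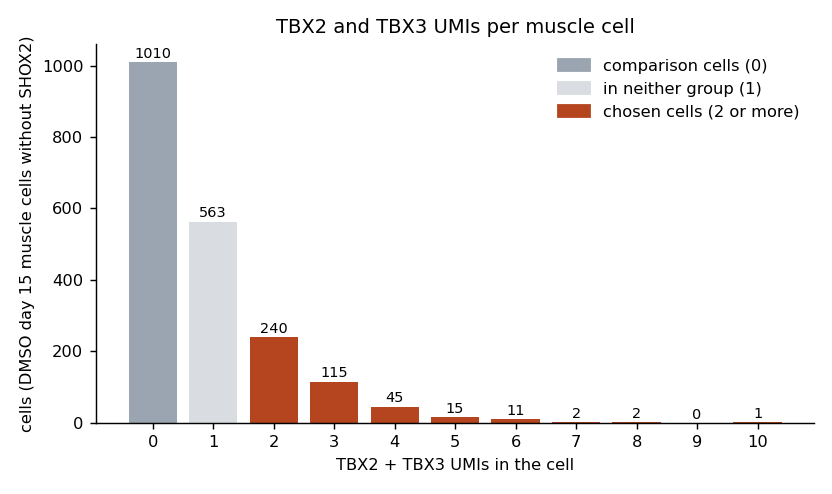
Number of DMSO day 15 muscle cells without SHOX2 (vertical axis) by the summed TBX2 and TBX3 UMIs of the cell (horizontal axis). The 1010 cells at 0 are the comparison cells, the 563 cells at 1 belong to neither group, and the chosen cells start at 2, where 240 of them stand.

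The chosen cells carried heart muscle transcripts that the rule had not used. NKX2-5, a core cardiac transcription factor, stood at 765 CPM in TBX cells, 643 in comparison cells and 43.4 in non-muscle cells, and MYL7, an atrial myosin light chain, at 23154, 20449 and 1506 CPM. Both muscle groups thus stood far above the non-muscle cells. The median TBX cell held 14031 UMIs and 3608 genes, against 12836 UMIs and 3350.5 genes in comparison cells and 17566 UMIs in non-muscle cells. The median muscle share was 1.3% in TBX cells and 1.27% in comparison cells. Mitochondrial genes took 5.33% and 4.89% of their UMIs and ribosomal protein genes 21.7% and 23.2%. Doublets were called in 37 TBX cells (8.58%) and 68 comparison cells (6.73%) and were kept, and 4 cell barcodes were shared with the CHIR library and 6 with the day 11 library.

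Markers of other cell types, smooth muscle excepted, were low but not absent. The summed level of the 7 mesenchymal markers was 557 CPM in TBX cells, 599 in comparison cells and 3102 in non-muscle cells. The 7 epicardial markers summed to 42, 57.1 and 296 CPM in that order. The 5 smooth muscle markers differed most between the muscle groups in summed level, at 837 CPM in TBX cells, 1261 in comparison cells and 2380 in non-muscle cells. Their per-cell median was 527 CPM in TBX cells, 503 in comparison cells and 551 in non-muscle cells, so the typical cells of all groups stood close together. The 95th percentile was 2118, 3275 and 9504 CPM in that order. The gaps thus lay in the richest cells. For the mesenchymal markers the per-cell median was 221 and 182 CPM, the reverse of the summed order. The 5 endothelial markers summed to 23.2 CPM in TBX cells, where CDH5 and EMCN, which define endothelial cells, were at 0 UMIs. Endoderm, neural, pluripotency and blood markers summed to at most 19.4 CPM in TBX cells.

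TBX cells held more BMP2, MSX2 and RSPO3 transcripts than comparison cells, more of the BMP response genes SMAD6 and SMAD7, and more TOP2A and UBE2C of the cell cycle. RSPO3, SMAD7 and UBE2C each fell short of 1.5-fold under at least 1 other setting, given beside their values. BMP2, MSX2 and SMAD6 did so when TBX cells were taken from 1 UMI on. They held fewer transcripts of NPPB, of the smooth muscle genes TAGLN and ACTG2 and of PDLIM3 and CCN2. For NPPB and ACTG2, nearly all UMIs of the comparison cells lay in a small part of those cells. Limits for NPPB, ACTG2, TAGLN and CCN2 are given beside their values. NPPA and most genes of contraction, calcium handling and metabolism differed by less than 1.5-fold. Over all 14313 genes with at least 20 UMIs in the 2 groups together, 756 (5.28%) were higher and 562 (3.93%) lower, and the median log2 ratio was 0.06. The interval left out 1 for 338 of the higher and 171 of the lower genes. Scaling by median of ratios in place of total UMIs moved this split from 57.4% of the called genes higher to 45.5%, with 571 higher and 685 lower. Of the 7891 genes with at least 200 UMIs, 72 (0.912%) were higher and 43 (0.545%) lower. In 20 lists of heart, signalling and metabolic genes, 171 genes were measured, of which 17 (9.94%) were higher and 9 (5.26%) lower.

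Among 8 regulators of the AVC other than TBX2 and TBX3, 4 were higher, 1 was lower and the median log2 ratio was 0.40. BMP2, the ligand that acts upstream of TBX2, lies on chromosome 20 from 6767686 to 6780246. It stood at 138 CPM in TBX cells and 81.6 in comparison cells, 1.69-fold higher (1.54 to 1.84). The homeobox gene MSX2, on chromosome 5 from 174724582 to 174730896, stood at 63.6 against 37.8 CPM, 1.68-fold higher (1.47 to 1.92). In the 247 TBX cells with TBX2 alone, MSX2 stood at 50.8 CPM (43.7 to 58.7), nearer to the comparison cells. RSPO3, which encodes a secreted amplifier of the Wnt pathway, stood at 143 CPM in TBX cells and 93.7 in comparison cells, 1.52-fold higher (1.4 to 1.66). It fell short of 1.5-fold under median-of-ratios scaling (1.46) and with every cell thinned to 5000 UMIs (1.43), called equal depth below. RSPO3 stood at 170 CPM in TBX cells with TBX2 alone, but at 107 (94.8 to 120) in the 184 with TBX3, near the comparison cells. TBX20, a T-box factor of heart muscle, was 1.55-fold higher from 67 and 94 UMIs, with an interval of 1.1 to 2.14, and missed 1.5-fold under 5 of 16 other settings.

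The other 4 AVC regulators were lower or nearly level. BMP4, a second BMP ligand, was 1.55-fold lower (1.26 to 1.92), at 18.6 CPM in TBX cells and 28.8 in comparison cells, and non-muscle cells stood at 76.7 CPM. Its ratio was 0.768 against comparison cells matched on muscle share. The ligand BMP7 (ratio 1.11), the BMP receptor BMPR1A (1.14) and the homeobox gene MSX1 (0.952) differed by less than 1.5-fold, with intervals that held 1.

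Detection per cell gave the same order at equal depth, which left out 13 TBX cells, 34 comparison cells and 1 non-muscle cell. BMP2 was then found in 35.7% of TBX cells (31.1 to 40.4), 25.3% of comparison cells (22.6 to 28.2) and 9.99% of non-muscle cells. Without thinning these shares were 58.9%, 40.5% and 21.5%. MSX2 was found in 23.4% of thinned TBX cells, 15.3% of comparison cells and 14.2% of non-muscle cells, so the comparison cells stood near the non-muscle level for this gene. Unthinned, MSX2 reached 49.2%, 30.7% and 31.3%. RSPO3 was found in 26.8%, 19.4% and 20.9% of thinned cells, and in 38.3%, 27% and 37.0% unthinned.

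Cells with transcripts of both BMP2 and MSX2 made up 7.66% of thinned TBX cells (5.30 to 10.6), 3.59% of comparison cells (2.51 to 4.95) and 0.951% of non-muscle cells, or 26.5%, 12.6% and 5.23% unthinned. BMP2 and RSPO3 met in 12% of thinned TBX cells (9.01 to 15.5) and 7.89% of comparison cells (6.28 to 9.76), intervals that overlap, or 28.3% and 15.4% unthinned. Each gene of these pairs was also detected more often on its own in TBX cells, and the pairs were not compared with the shares that the single genes would give.

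BMP signals reach the nucleus through SMAD proteins, and the ID genes and the inhibitory SMADs are among their direct targets. All 9 measured BMP response genes had a ratio above 1 and 2 of them were higher, with a median log2 ratio of 0.35, against 0.06 over all genes. SMAD6, an inhibitory SMAD, stood at 44.5 CPM in TBX cells and 26.3 in comparison cells, 1.69-fold higher (1.44 to 1.98), and was found in 20.8% and 12.7% of thinned cells. The second inhibitory SMAD, SMAD7, was 1.53-fold higher (1.31 to 1.79), but 1.27-fold at equal depth. The ID genes, which block basic helix-loop-helix factors, had ratios of 1.34 for ID4 (107 against 80.2 CPM), 1.27 for ID2, 1.26 for ID3 and 1.15 for ID1. BAMBI, a decoy receptor, was nearly level at 1.03.

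**Figure D2:**
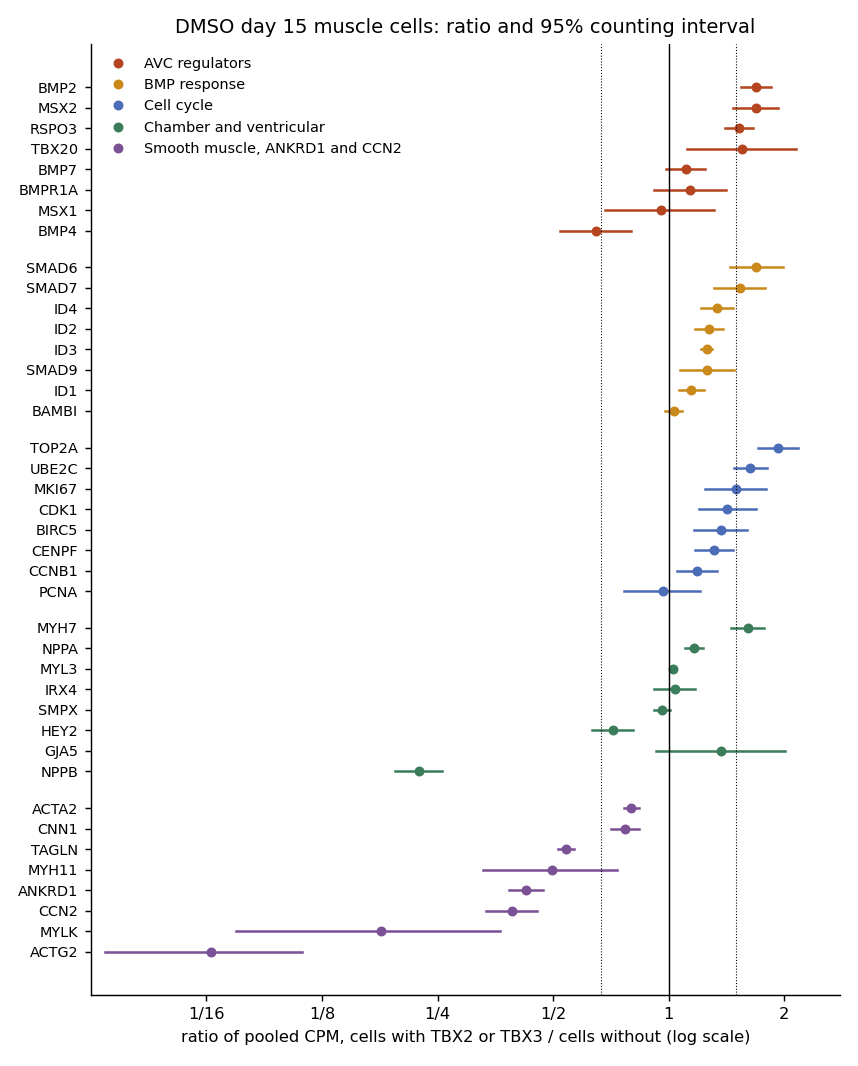
Ratio of pooled CPM, TBX cells over comparison cells (horizontal axis, log scale), for 40 genes in 5 colour groups, with 95% counting intervals as bars and dotted lines at 1.5-fold in either direction. BMP2 (1.69), MSX2 (1.68), SMAD6 (1.69) and TOP2A (1.92) lie to the right, and NPPB, MYLK and ACTG2 lie farthest to the left.

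Chamber genes were not lower as a group. Of 8 measured, 0 were higher and 1 was lower, and the median log2 ratio was -0.01. NPPA stood at 327 CPM in TBX cells and 281 in comparison cells, a ratio of 1.17 (1.1 to 1.23), and was found in 34.9% and 28.3% of thinned cells, against 1.27% of non-muscle cells. NPPB, its neighbour on chromosome 1 and a gene of stretched and working muscle, stood at 33.8 CPM in TBX cells and 151 in comparison cells, 4.48-fold lower (3.89 to 5.18). That level rested on few cells: 1 comparison cell held 982 of the 2084 NPPB UMIs, and the 5% of comparison cells richest in NPPB held 96.4% of them. NPPB was detected in 7.18% of thinned TBX cells and 6.76% of comparison cells, intervals that overlap. SMPX (ratio 0.960), HAND1 (1.02), GJA5 (1.37) and GJA1 (0.852), which include connexin genes of fast conduction, stayed within 1.5-fold.

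Ventricular and atrial genes gave single differences. MYH7, the slow myosin heavy chain of ventricular muscle, had levels of 112 CPM in TBX cells and 70.0 in comparison cells, 1.61-fold higher (1.46 to 1.77). It was 1.21-fold without cycling cells and 1.37-fold at equal depth. HEY2, a repressor of compact ventricular muscle, stood at 53.8 against 75.3 CPM, a ratio of 0.714 (0.630 to 0.808) that did not reach 1.5-fold, and was found in 20.6% against 27.6% of thinned cells. MYL2 (1.03), MYL3 (1.03), IRX4 (1.04) and FHL2 (1.05) were nearly level. Of 9 atrial genes, SLN, KCNA5 and NR2F1 were lower and none was higher. KCNA5 and NR2F1 were scarce, at 1.26 and 5.21 CPM in TBX cells. SLN, which inhibits the calcium pump of atrial muscle, had 7.26 CPM in TBX cells and 25.8 in comparison cells, 3.56-fold lower (2.61 to 4.95), and the 5% richest comparison cells held 95.5% of its UMIs.

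No gene of the slow conduction list (10 measured, median log2 ratio 0.17) or of the sinoatrial list (7 measured, median -0.26) passed 1.5-fold. The sinoatrial median turned to 0.0386 with comparison cells matched on muscle share and to 0.0660 for genes with at least 200 UMIs. CACNA1D, a calcium channel gene of nodal tissue, came nearest on the higher side, at 54.4 against 36.8 CPM, a ratio of 1.48 (1.29 to 1.70) that was 1.59 against comparison cells matched on depth. HCN4, the pacemaker channel gene, had a ratio of 1.13 (0.984 to 1.3). For ISL1, which acts in the sinus node and second heart field, levels were 17.8 against 26.1 CPM and the ratio was 0.683 (0.548 to 0.846).

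The contractile, calcium and metabolic programmes were close to level. Of 14 sarcomere genes outside the rule, 8 calcium handling genes, 8 cardiac transcription factors, 11 glycolysis genes and 9 genes of muscle fuel, none was higher or lower. Their median log2 ratios were 0.15, 0.11, 0.18, 0.01 and 0.05, against 0.06 over all genes. NKX2-5 (1.19), TTN (1.14) and MYBPC3 (1.16) had ratios somewhat above 1, and ACTC1, the cardiac alpha actin, a ratio of 0.915 (0.904 to 0.926).

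Cell cycle genes were more abundant in TBX cells. Of 14 measured, 4 were higher, 13 had a ratio above 1, and the median log2 ratio was 0.42, against 0.06 over all genes. TOP2A, a topoisomerase of dividing cells, stood at 83.1 CPM in TBX cells and 43.2 in comparison cells, 1.92-fold higher (1.71 to 2.17), and UBE2C, a ubiquitin enzyme of mitosis, was 1.63-fold higher (1.48 to 1.80). UBE2C was 1.26-fold without called doublets. MCM5 (45 and 54 UMIs) and RRM2 (92 and 132 UMIs) were the other higher genes, at 1.81-fold and 1.52-fold. MCM5 was 1.04-fold and RRM2 1.20-fold at equal depth. Cells with more than 2 UMIs of these genes were 23.9% of thinned TBX cells (19.9 to 28.3), 17.8% of comparison cells (15.5 to 20.4) and 24.3% of non-muscle cells, or 53.1%, 42.4% and 58.7% unthinned. Without such cycling cells the median over the list was -0.11, from the 7 genes still measured. Those cells were removed by their UMIs of these same genes, so a smaller difference in the list follows from the removal itself. BMP2, MSX2 and SMAD6 stayed above 1.5-fold without the cycling cells.

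Wnt and cushion genes differed in both directions. Of 8 Wnt targets, RNF43, a negative regulator of Wnt receptors, was 1.79-fold higher (1.23 to 2.59) from 55 and 67 UMIs, and DKK1, a secreted Wnt antagonist, was 1.87-fold lower (1.52 to 2.31) at 18.1 against 33.9 CPM. AXIN2 (25 and 41 UMIs), LEF1 and TCF7 had intervals that held 1. WNT2, a Wnt ligand, stood at 30.3 CPM in TBX cells, 18.1 in comparison cells and 0.754 in non-muscle cells, 1.68-fold higher (1.38 to 2.03), but 1.28-fold at equal depth. The secreted antagonists FRZB (2.0-fold, 1.67 to 2.40) and SFRP5 (1.60-fold, 1.38 to 1.87) were lower, and SFRP2 was 1.63-fold higher from 45 and 60 UMIs in 15 and 32 cells. The SFRP2 direction turned under 5 of 16 settings, for example to a ratio of 0.778 at equal depth and 0.718 without called doublets. FRZB, SFRP5 and DKK1 stood higher in non-muscle cells, at 284, 164 and 58.5 CPM. FRZB had a ratio of 0.903 without called doublets, and SFRP5 one of 0.724 against cells matched on muscle share, so both calls ended, while the DKK1 call held under all 16 settings. HAS2, which makes the hyaluronan of the cardiac cushions, stood at 72.7 against 46.1 CPM, 1.58-fold higher (1.4 to 1.78), and was the only one of 8 cushion genes past 1.5-fold.

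The remaining lists held few differences. No Notch gene of 6 passed 1.5-fold (median log2 ratio -0.04). DHRS3, a retinaldehyde reductase, was 1.56-fold higher among 5 retinoic acid genes, and FOSB was 1.68-fold higher among 8 immediate early genes, from 61 and 79 UMIs. CDKN2B, a cell cycle inhibitor, was lower from 5 and 28 UMIs with an interval that held 1. KDR, a receptor of endothelial cells and heart progenitors, was 1.77-fold higher (1.41 to 2.22), while EMCN was at 0 UMIs in TBX cells against 46 in comparison cells.

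Beyond the lists, the 12 genes with the largest ratios included HAMP, ENG, TBX2-AS1 and the genes of dividing cells ASPM, DLGAP5, NUSAP1 and MPHOSPH9. HAMP, which encodes the iron hormone hepcidin, stood at 173 CPM in TBX cells, 73.4 in comparison cells and 3.30 in non-muscle cells, 2.36-fold higher (2.16 to 2.57). Its UMIs were concentrated, with 79.0% of them in the 5% richest TBX cells and 83.3% in the 5% richest comparison cells. HAMP was found in 23.0% of TBX cells, 15.0% of comparison cells and 3.38% of non-muscle cells, or 16.5%, 9.43% and 1.48% at equal depth. ENG, a co-receptor for ligands of the TGF-beta and BMP family, stood at 55.7 against 29.8 CPM, 1.87-fold higher (1.62 to 2.16). A2M (1.60-fold, but 1.33-fold at equal depth), a protease inhibitor, and IGFBP6 (1.51-fold), which binds insulin-like growth factors, were higher as well. COL2A1 (1.47), a cartilage collagen, was just short of 1.5-fold.

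TBX2-AS1 is a noncoding RNA gene on chromosome 17 from 61393456 to 61399606, next to TBX2 and not overlapping it in the RefSeq annotation. It stood at 276 CPM in TBX cells, 173 in comparison cells and 17.0 in non-muscle cells, 1.60-fold higher (1.5 to 1.70). At equal depth it was found in 71.8% of TBX cells, 53.0% of comparison cells and 8.03% of non-muscle cells. Muscle cells without a TBX2 UMI thus often carried it. In the 43 TBX cells with TBX3 alone it stood at 177 CPM (144 to 215), near the level of comparison cells. Whether reads were counted by strand, and the bounds that the authors' annotation gives these neighbours, are not given in the sources used here, so reads of the 2 genes cannot be told apart with certainty.

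The 12 genes with the smallest ratios began with ACTG2, CXCL14 and PDLIM3. ACTG2, the smooth muscle gamma actin, gave 13 UMIs in TBX cells and 440 in comparison cells, 15.6-fold lower (9.0 to 29.4), and 5% of the comparison cells held 100% of them. PDLIM3, a Z-disc protein, was 2.66-fold lower (2.36 to 3.02) at 48.1 against 128 CPM. CCN2, a matricellular growth factor, was 2.56-fold lower (2.21 to 2.99), and ANKRD1, a stretch-induced repeat protein of the sarcomere, was 2.35-fold lower (2.12 to 2.60). Its fold was 1.24, under the threshold, when TBX cells were taken from 1 UMI on. CCN2 was found in 8.85% of thinned TBX cells and 13.7% of comparison cells. ANKRD1 was found in 15.8% and 17.0%, so its level differed more than its detection. ANGPT1, a vascular ligand, and NRP2, a semaphorin co-receptor, differed in detection too. ANGPT1 was 1.98-fold lower (1.72 to 2.29) and found in 13.9% against 24.6% of thinned cells, and NRP2 was 1.66-fold lower (1.5 to 1.85) and found in 25.1% against 34.3%. CXCL14, a chemokine, was 2.86-fold lower (2.21 to 3.75), and C7, ANXA1, DGKI, CEBPD and DLK1 had folds of 1.70 to 2.11 lower. With the muscle threshold at 0.5 of the percentile, DLK1 turned to 1.79-fold higher and CEBPD to a ratio of 1.1.

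Of the 5 smooth muscle markers, TAGLN, MYH11 and MYLK were lower, all 5 had a ratio below 1, and the median log2 ratio was -0.89. TAGLN, an actin-binding protein, stood at 329 CPM in TBX cells, 611 in comparison cells and 1674 in non-muscle cells, 1.86-fold lower (1.77 to 1.95). It was detected in 48.6% of thinned TBX cells and 48.3% of comparison cells, and 65.3% of its comparison UMIs lay in 5% of those cells. With a muscle threshold at 0.5 of the percentile, which leaves 347 TBX cells and 785 comparison cells, the TAGLN ratio was 0.920, the CCN2 ratio 0.729 and the list median -0.13. The mesenchymal genes DCN and LUM were 1.82-fold and 1.60-fold lower at the main threshold, but had ratios of 2.90 and 1.98 at the higher one. Without cells high in mesenchymal and epicardial markers their ratios were 0.776 and 1.04. The part of cells with few muscle transcripts in these results was not tested further.

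One of these 12 genes carries a T-box element in its promoter, which is shown because TBX2 and TBX3 bind this element. The motif searched was AGGTGTGA, or TCACACCT on the other strand, in 300 bases of each RefSeq promoter of GRCh38.p14 (250 before and 50 after the start), with matches counted once per promoter. It was present in 344 of 35116 promoters (0.980%). Of the 12 genes with the smallest ratios, 9 had a promoter entry and 1 of them, PDLIM3, held the motif. The motif was in 0 of 7 entries of the 12 genes with the largest ratios, in 0 of 6 AVC regulators and in 0 of 6 chamber genes. The match starts 222 bases before the PDLIM3 start, on the minus strand of chr4:185535680-185535757, with the element in capitals.
PDLIM3: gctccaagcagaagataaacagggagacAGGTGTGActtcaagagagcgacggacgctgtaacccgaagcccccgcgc
PDLIM3 stood at 128 CPM in cells with 0 TBX UMIs, 59.4 with 1, 63.6 with 2, 36.3 with 3 to 4 and 9.2 with 5 or more. The last class held only 31 cells. PDLIM3 was found in 23.8% of the cells with 2 UMIs and 23.1% with 3 to 4, so detection was level between these classes. The classes are set by the genes that chose the cells. This match is a description and shows no binding, and a link between the motif and these levels was not tested.

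Levels also varied with the number of TBX2 and TBX3 UMIs in the cell. The cells numbered 1010, 563, 240, 160 and 31 at 0, 1, 2, 3 to 4 and 5 or more UMIs, and the median depth was 12836, 13434, 12980, 14603 and 16226 UMIs in that order. TBX2-AS1 stood at 173, 218, 256, 292 and 330 CPM across these classes, so each class was above the one before. Its intervals at 2 and at 3 to 4 UMIs overlap (239 to 273 and 272 to 314). TBX2 helps set the classes, and reads of the 2 neighbours cannot be told apart with certainty, so this order is a description only. BMP2 stood at 81.6, 95, 137, 127 and 190 CPM and TOP2A at 43.2, 53.8, 79.7, 83.3 and 103 CPM. HEY2 stood lower in each successive class, at 75.3, 71.5, 57.8, 51.4 and 40.5 CPM, although its last intervals overlap (42.9 to 61.1 and 25.4 to 61.3). MSX2 was highest at 3 to 4 UMIs, at 81.8 CPM, and returned to 51.5 CPM at 5 or more. NPPA was nearly level over the first 4 classes (281, 269, 297 and 313 CPM) and stood at 574 CPM (512 to 642) in the 31 cells with 5 or more. The classes also differed in TBX3, which was found in 88 of 240 cells at 2 UMIs, 77 of 160 at 3 to 4 and 19 of 31 at 5 or more. The part of this in the NPPA levels was not tested. NPPB stood at 151 CPM with 0 UMIs and at 31.7 with 1 UMI, a class outside both groups compared. When TBX cells were taken from 1 UMI on, BMP2, MSX2 and SMAD6 each had a ratio of 1.4, below 1.5-fold. TBX2-AS1 (1.41), KDR (1.4), HAS2 (1.49), RNF43 (1.36), FOSB (1.3), ANKRD1 (0.809), ANGPT1 (0.722) and DGKI (0.712) also lost their calls then.

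**Figure D3:**
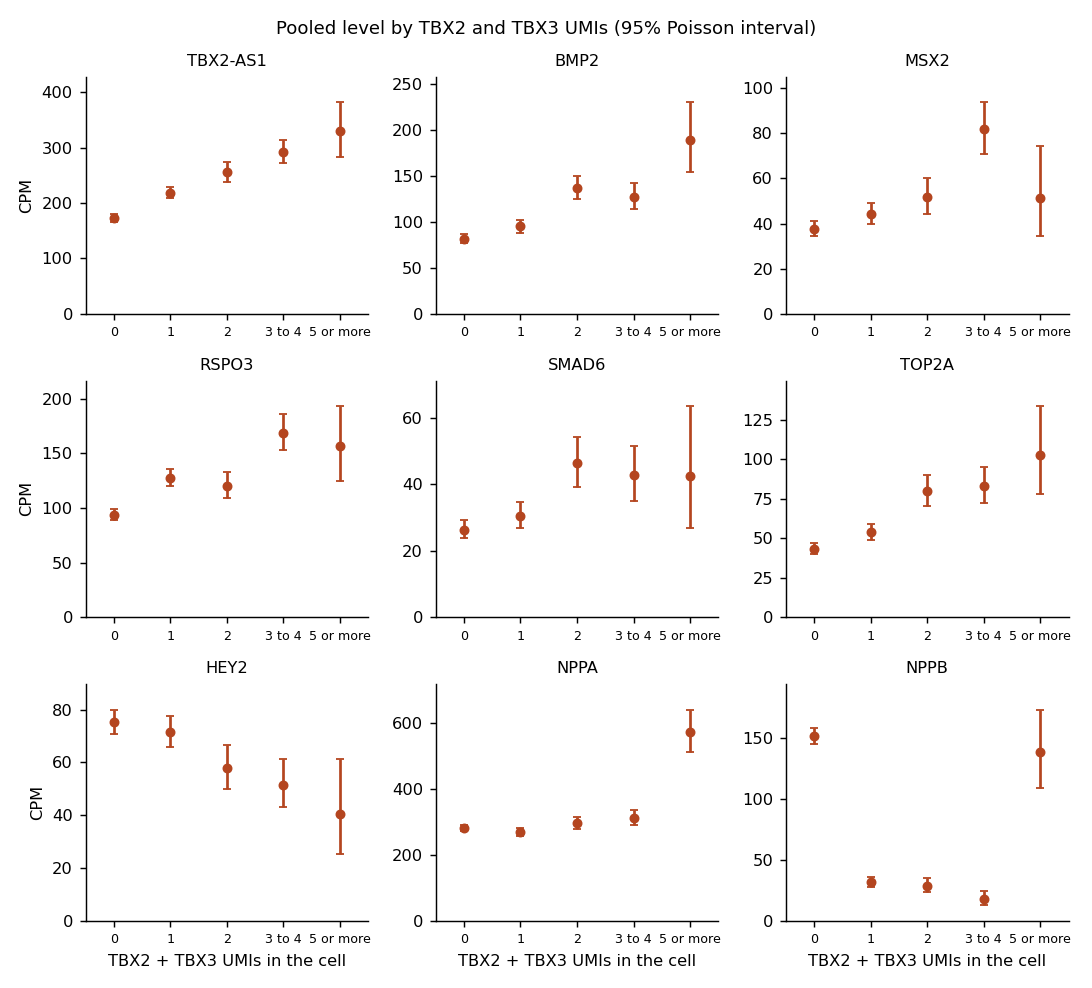
Pooled CPM (vertical axis, from 0) of 9 genes in DMSO muscle cells without SHOX2, by TBX2 plus TBX3 UMIs in the cell (horizontal axis), with 95% Poisson intervals. TBX2-AS1 goes from 173 to 330 CPM across the classes and HEY2 from 75.3 to 40.5, while NPPA stands apart only at 5 or more UMIs.

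TBX cells with TBX3 differed from those with TBX2 alone in chamber genes, among others. NPPA stood at 189 CPM (175 to 204) in the 247 cells with TBX2 alone, 488 (459 to 518) in the 141 with both and 600 (538 to 667) in the 43 with TBX3 alone, around the 281 CPM (272 to 290) of comparison cells. The cells with TBX2 alone were thus below the comparison cells and those with TBX3 above them. Over the 184 cells with TBX3, NPPA was 2.71-fold higher (2.47 to 2.97) than in cells with TBX2 alone. NPPB was 3.5-fold higher (2.58 to 4.81), at 16.3 CPM with TBX2 alone, 67.5 with both and 17.5 with TBX3 alone. Among the chamber genes, 4 of 7 were higher and none lower, with a median log2 ratio of 0.91. GJA5 was among them, from 46 UMIs in all. Over all 11825 genes measured in this pair, 5.71% were higher and 6.77% lower with TBX3, and the median log2 ratio was -0.01.

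MSX2 stood at 50.8, 76.9 and 94.5 CPM with TBX2 alone, both and TBX3 alone, and was 1.59-fold higher with TBX3 (1.3 to 1.94). HAMP stood at 138, 214 and 243 CPM and was 1.60-fold higher (1.41 to 1.80). RSPO3 and MYH7 had the opposite order. RSPO3 stood at 170, 109 and 98 CPM and was 1.59-fold lower with TBX3 (1.38 to 1.84), and MYH7 at 132, 101 and 28.0 CPM and was 1.54-fold lower (1.32 to 1.81). BMP2 was level at 134, 145 and 135 CPM, and SMAD6 at 39.8, 51.7 and 47.2 CPM with overlapping intervals.

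Other measures also differed when all cells with TBX3 were pooled and set against those with TBX2 alone. CCNB2 and CCNB1, cyclins of mitosis, were 2.24-fold (1.81 to 2.77) and 1.87-fold higher (1.53 to 2.28), and CDKN1A, a cell cycle inhibitor, 2.10-fold higher (1.59 to 2.78). Cells with more than 2 cell cycle UMIs were 47.0% of those with TBX2 alone, 51.2% with TBX3 alone and 64.5% with both. The mesenchymal markers DCN and LUM were each 2.76-fold higher and the epicardial marker TCF21 3.21-fold higher (2.32 to 4.49) with TBX3. Most of these genes stood higher in cells with both than with TBX3 alone. CCNB1 stood at 102 and 49.0 CPM in that order, CDKN1A at 56.8 and 26.2, and DCN at 36.8 and 14.0. TCF21 stood at 53.1 and 28.0 CPM and CCNB2 at 92.2 and 77.0, while LUM had the opposite order, at 60.1 and 78.7. The pooled ratios thus do not describe the cells with TBX3 alone. Called doublets were 7.69%, 4.65% and 11.3% of the cells with TBX2 alone, TBX3 alone and both, and the median depth was 13938, 13177 and 14250 UMIs. The part of these cells in the NPPA difference was not tested.

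**Figure D4:**
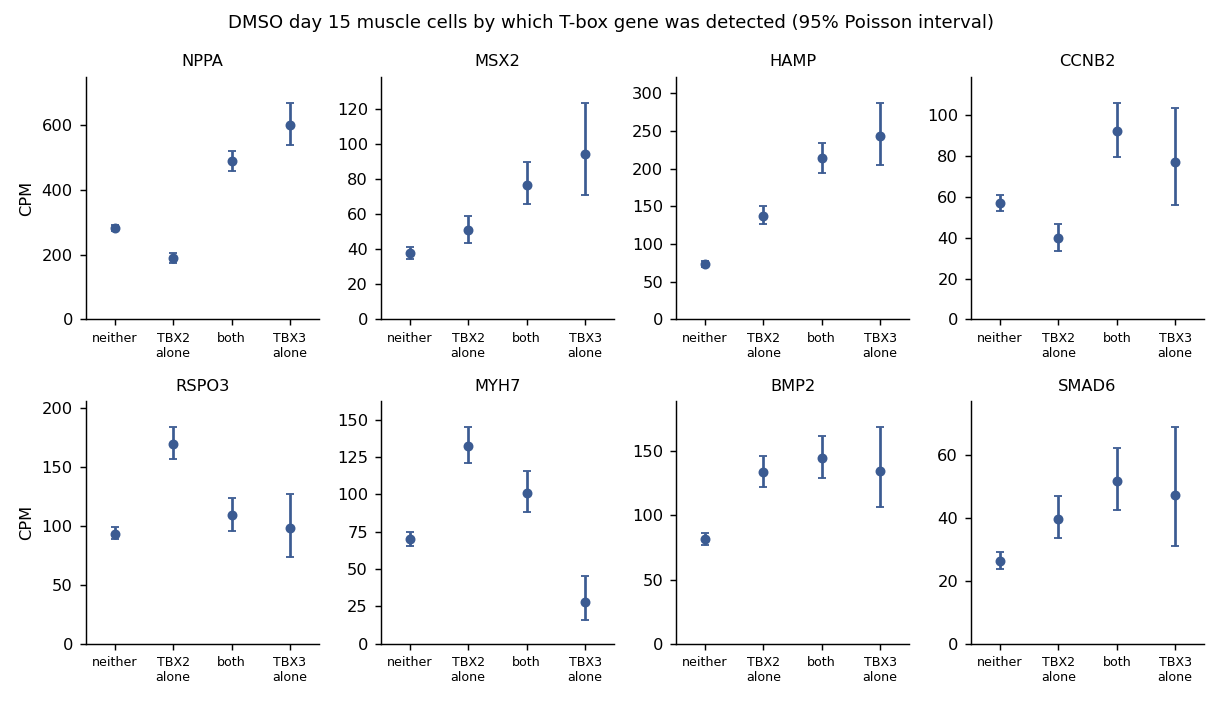
Pooled CPM (vertical axis, from 0) of 8 genes in muscle cells with neither T-box gene, TBX2 alone, both or TBX3 alone, with 95% Poisson intervals. NPPA, MSX2 and HAMP are highest with TBX3 alone, RSPO3 and MYH7 highest with TBX2 alone, and BMP2 stays between 134 and 145 CPM in all 3 classes with a T-box gene.

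The cells most like the TBX cells were 16 muscle cells with at least 2 UMIs of TBX2 and TBX3 that the rule left out because they held SHOX2. They held 295663 UMIs in all, and 6 of the 16 were called doublets (37.5%). BMP2 (138 CPM in TBX cells against 112), MSX2 (63.6 against 50.7) and RSPO3 (143 against 132) had intervals of the ratio that held 1. TBX cells held 24.2-fold more NPPA (9.43 to 88.8), which gave 4 UMIs in the SHOX2 cells, and 2.06-fold more NKX2-5 (1.70 to 2.51), at 765 against 372 CPM. They held less of the sinus node factor ISL1 (8.92-fold lower, 6.21 to 12.6), of BMP4 (8.54-fold, 5.96 to 12.1), of DKK1 (9.69-fold, 6.85 to 13.6) and of the atrial gene NR2F2 (5.63-fold, 3.79 to 8.18). Of the chamber genes 5 of 7 were higher in TBX cells and of the atrial genes 5 of 8 lower, where 28.7% and 15.8% of all 11940 genes measured passed 1.5-fold in those directions.

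The same rule was applied to the other libraries, with the percentile of each. It found 983 TBX cells with CHIR, 57.9% of 1699 muscle cells, and 998 at day 11, 26.0% of 3842, against the 20.3% with DMSO. The median depth was 17251 UMIs in TBX cells and 12854 in 338 comparison cells with CHIR, a wider gap than with DMSO, and 12292 and 11529.5 at day 11, with 1734 comparison cells. Of all genes measured, 9.93% were higher and 3.42% lower in TBX cells with CHIR, and 3.82% and 3.61% at day 11.

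Of the 18 list genes that were higher with DMSO, 11 had a ratio above 1 with CHIR and 3 passed 1.5-fold (BMP2, RSPO3 and SMAD7). At day 11, 17 were measured, 13 had a ratio above 1 and 3 passed 1.5-fold (MSX2, WNT2 and UBE2C). The share of all genes with a ratio above 1 is not given for any library. Counts of genes above or below 1, here and elsewhere, thus have no background beside them. The cell cycle list had a median log2 ratio of -0.19 with CHIR and 0.35 at day 11, beside the 0.42 with DMSO. BMP2, MSX2, RSPO3, SMAD6 and SMAD7 were among the genes above 1 in all 3 libraries. BMP2 was 1.72-fold higher with CHIR (1.38 to 2.16) and had a ratio of 1.11 at day 11 (1.05 to 1.18), where TBX cells held 157 CPM and comparison cells 142. MSX2 had ratios of 1.37 (1.21 to 1.56) with CHIR and 1.68 (1.49 to 1.89) at day 11. RSPO3 had ratios of 1.53 with CHIR, with an interval of 0.926 to 2.67, and 1.47 (1.4 to 1.54) at day 11. All 9 BMP response genes had a ratio above 1 in each library, with a median log2 ratio of 0.59 with CHIR and 0.31 at day 11, beside the 0.35 with DMSO. NPPA had a ratio of 0.941 (0.780 to 1.14) with CHIR and was lower at day 11, 1.61-fold (1.47 to 1.77). Its level in TBX cells was 327 CPM with DMSO, 30.1 with CHIR and 49.96 at day 11.

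Genes outside the lists were also followed in both libraries. All 12 genes with the largest DMSO ratios had a ratio above 1 at day 11, with ASPM and NUSAP1 past 1.5-fold, and 2 of the 12 did with CHIR, none past 1.5-fold. HAMP, which led with DMSO, had ratios of 0.715 (0.453 to 1.16) with CHIR and 1.17 (0.909 to 1.51) at day 11, at 4.22 and 8.64 CPM in TBX cells. Of the 12 with the smallest ratios, 11 were below 1 at day 11 and 6 of them past 1.5-fold (ACTG2, CXCL14, PDLIM3, CCN2, ANKRD1 and ANXA1). With CHIR 11 were measured, 3 were below 1, ANKRD1 alone passed 1.5-fold, and C7, ANXA1, CEBPD, DLK1 and NRP2 were higher instead. C7 stood at only 2.14 CPM in TBX cells with CHIR. It is not among the genes flagged below, whose intervals left out 1 in both libraries. TAGLN was 2.24-fold lower at day 11 (2.15 to 2.32) and had a ratio of 0.811 with CHIR.

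Mesenchymal transcripts were more abundant in the TBX cells of the CHIR library. All 7 mesenchymal markers were higher in its TBX cells, with a median log2 ratio of 1.79, against 0 of 7 with DMSO and 1 of 7 at day 11. DCN was 4.07-fold higher (3.06 to 5.53) and LUM 4.07-fold higher (3.16 to 5.34) with CHIR. TBX2 and TBX3 were also more abundant in the non-muscle cells of that library, at 41.5 and 128 CPM, than in those with DMSO, at 3.55 and 14.4 CPM. The part of RNA or cells of other types in the CHIR values was not tested.

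**Figure D5:**
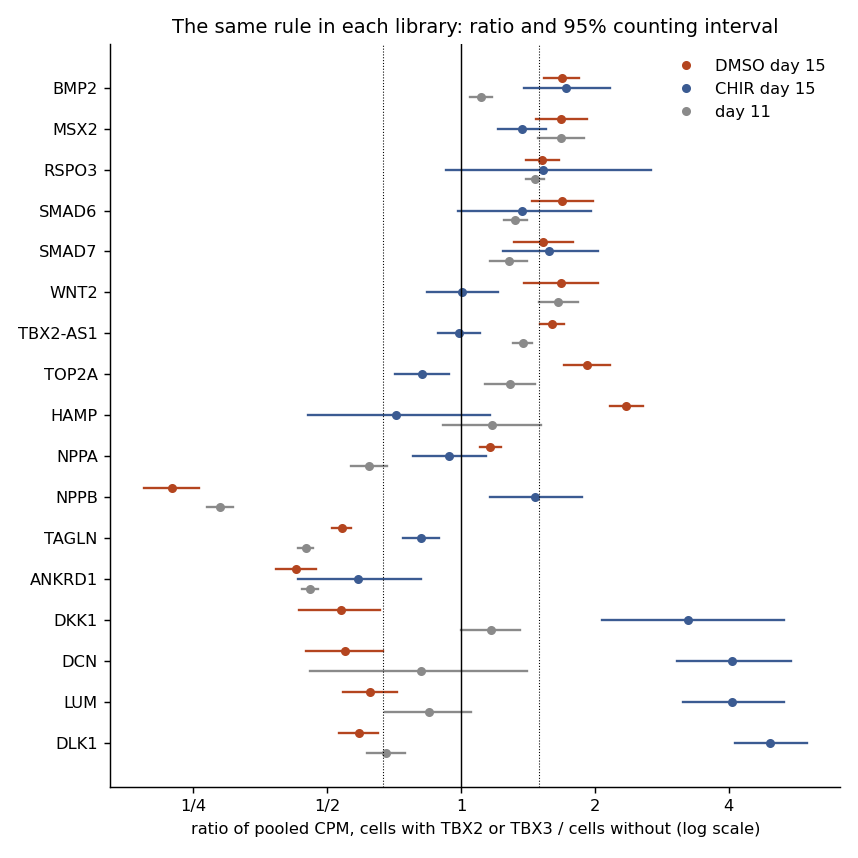
Ratio of pooled CPM, cells with TBX2 or TBX3 over muscle cells without (horizontal axis, log scale), for 17 genes in the DMSO day 15, CHIR day 15 and day 11 libraries, with 95% counting intervals and dotted lines at 1.5-fold. BMP2 to SMAD7 lie to the right of 1 in all 3, while DKK1, DCN, LUM and DLK1 lie left of 1 with DMSO and right of 1 with CHIR.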

How the data were processed

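Single cells of H1-derived cardiac cultures were measured by droplet RNA sequencing after dissociation with collagenase and Accutase and a live-cell sort with DAPI, per the labels' protocols. The authors deposited raw UMI counts per gene and cell, which the submitters' processing notes trace to GRCh38 and Cell Ranger 6.1.1. The day 11 notes also name R 4.1.0 and Seurat 4.3.0. Not given in the sources used here are the strand setting and whether reads in introns were counted. The 4 chromatin samples were not used here.

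The members and the gene lists were chosen with earlier results of these data known. All deposited cells were kept, and 220 DMSO cells were called doublets by Scrublet in scanpy 1.11.5 at an expected rate of 0.06. Pooled UMIs were 6338529 in the chosen cells and 13793181 in the comparison cells. Ratios were taken for genes with at least 20 UMIs over both groups, with 0.5 added to each count for log2. Levels have exact Poisson, shares exact Clopper-Pearson and ratios conditional binomial 95% intervals. For shares at equal depth, each cell was thinned to 5000 UMIs with seed 1. Genes named are those of the 30 lists, and, of genes in no list, the 12 highest and 12 lowest ratios among genes reaching 30 CPM in either group whose interval leaves out 1 and whose direction held with depth-matched comparison cells, without mitochondrial and ribosomal protein genes. In the pairs of groups within the chosen cells and against SHOX2 cells, further genes were taken in the same way. Of 255 genes named or listed, 255 matched RefSeq and 249 were listed in the DMSO table. The calculations were tested on simulated data and run in Python 3.11.15 with numpy 2.4.6, scipy 1.17.1, pandas 2.3.3 and matplotlib 3.10.9. In all, 16 other settings were tried. Some genes that these rules name are not reported here.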

Additional observations from a re-analysis of the deposited data

Results flagged for a closer look

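For 10 genes the ratio of TBX cells to comparison cells lay on opposite sides of 1, past 1.5-fold each way and with intervals that left out 1, with DMSO and with CHIR. The difference between the libraries was not tested, since each has 1 library. SLN had a ratio of 0.281 with DMSO and 2.26 with CHIR (interval 1.09 to 5.44). The secreted Wnt antagonists DKK1 and FRZB had ratios of 0.536 and 0.501 with DMSO and of 3.24 and 1.68 with CHIR. The mesenchymal genes DCN and LUM had ratios of 0.548 and 0.625 with DMSO and of 4.07 each with CHIR. ANXA1 (0.501 with DMSO, 8.54 with CHIR), CEBPD (0.553, 3.11), DLK1 (0.589, 4.96) and NRP2 (0.601, 1.97) had the same order. A2M alone had the opposite order, with 1.60 for DMSO and 0.297 for CHIR. In the CHIR library, all 7 mesenchymal markers were higher in TBX cells, and the median depth was 17251 UMIs in TBX cells and 12854 in comparison cells. The part of these in the values above was not tested.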

How the results depend on the processing

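No paired analysis was possible because each group of cells came from 1 library and no test was made. Over 16 other settings, the numbers of genes past 1.5-fold stayed within 1.5 times the main counts in 27 of 32 cases. The exceptions were genes with at least 1 UMI (3108 higher, 3208 lower), genes with at least 200 UMIs (72 and 43), and 853 lower genes with at least 3 UMIs of TBX2 and TBX3. List medians stayed within 0.2 of the main value in 356 of 384 cases, and single genes stayed within 1.5 times in 2937 of 3392. The cell cycle median was 0.63 from 3 UMIs on and -0.11 without cycling cells, which were set apart by these same genes. The smooth muscle median was -0.69 as a mean of per-cell CPM, -0.58 at equal depth, -1.11 from 3 UMIs on, -0.13 at the higher muscle threshold and -0.38 for genes of 200 UMIs. The sinoatrial median turned to 0.0386 with comparison cells matched on muscle share and to 0.0660 for genes of 200 UMIs. SFRP2 turned to log2 ratios of -0.31 at equal depth, -0.42 without doublets, -1.62 and -0.44 at muscle thresholds of 0.15 and 0.5 of the percentile, and -1.41 without cycling cells. At 0.5 of the percentile, FRZB (0.00868), DCN (1.53), LUM (0.98), CEBPD (0.13) and DLK1 (0.84) turned to higher log2 ratios, and LUM was 0.0605 without cells high in mesenchymal and epicardial markers. The causes were not tested.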
